A study of Mus musculus with 5 samples.

Results

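Inguinal fat, the white depot under the skin of the groin, was set against the gastrocnemius and against the soleus, a mostly fast and a slow calf muscle. The members were the 598 probes naming a mouse microRNA, among 2340 probe rows on the array. They were read on 3 of the 5 arrays of the series, with each muscle compared apart and never as a replicate of the other. Labelled RNA of each tissue was hybridised to a miRCURY array from Exiqon, whose fluorescence intensity at a probe reports the microRNA. The donors were C57BL/6 mice aged 2 to 3 months, with no treatment or altered gene named for any group. Each tissue had 1 array, the number of animals behind it is not in the labels, and whether the inguinal lymph node was taken along is not given in the sources used here. No difference therefore has a replicate check, and no test was run. In whole tissue, fewer cells of a type and less RNA per cell cannot be told apart.

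MicroRNAs are short RNAs that guide silencing proteins to messenger RNAs, mainly through the seed near their 5′ end. A precursor hairpin can give a mature microRNA from each arm, and the array's older names mark the usually rarer arm with an asterisk. Skeletal muscle is known for miR-1, miR-133 and miR-206, which act in muscle differentiation, whereas white fat mixes adipocytes with vessels, stromal precursors and immune cells.

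The levels below are normalized intensities, the background-subtracted intensity of a probe divided by the array's median in the authors' scaling. Detection required 50 units after background subtraction. Of the 598 probes, 148 were detected in inguinal fat, 165 in gastrocnemius and 170 in soleus, and 132 on all 3 arrays. Negative controls stayed at or below 2 units and empty spots at or below 2.5 units on these arrays. Detected on either array of a pair were 180 microRNAs for gastrocnemius and 184 for soleus, and these were compared. Where the dimmer side was under the floor, it was raised to the lowest detected level of its array and the fold is given as at least that size. Such a microRNA could be called only in the direction of its detected side.

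The sequences that carry the main differences come first, as mature microRNAs from RefSeq on GRCm38.p6, 5′ to 3′, with the seed, bases 2 to 8, in capitals. The muscle set shows microRNAs that were near or under the detection floor in inguinal fat and bright in muscle. miR-206 (chr1:20679055-20679076, plus strand) and miR-133b (chr1:20682834-20682855, plus strand) lie within the span of the long noncoding RNA gene Lincmd1. miR-208b (chr14:54975710-54975731, minus strand) lies within Myh7, the slow myosin heavy chain gene, and miR-499 (chr2:155622893-155622913, plus strand) within Myh7b, another myosin gene.
miR-206: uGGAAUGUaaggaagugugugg
miR-133b: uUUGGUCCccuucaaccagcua
miR-208b: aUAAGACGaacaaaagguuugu
miR-499: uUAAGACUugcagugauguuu

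From the imprinted Dlk1-Dio3 region of chromosome 12, the arms of miR-434 are shown because the 3p arm had the largest measured difference of that locus. Its arms lie at chr12:109594565-109594586 (3p) and chr12:109594528-109594549 (5p), both on the plus strand and within the span of Rtl1.
miR-434-3p: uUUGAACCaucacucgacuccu
miR-434-5p: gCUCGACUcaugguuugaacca

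The set higher in inguinal fat is led by the arms of miR-142 (chr11:87756867-87756887 for 5p and chr11:87756903-87756925 for 3p, plus strand), a precursor made in blood cells. miR-146a (chr11:43374435-43374456, minus strand) and miR-146b (chr19:46342790-46342811, plus strand) share a seed, and miR-708 (chr7:96249450-96249472, plus strand) lies within Tenm4.
miR-142-5p: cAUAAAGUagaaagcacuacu
miR-142-3p: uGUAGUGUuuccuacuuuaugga
miR-146a: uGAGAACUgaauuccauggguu
miR-146b: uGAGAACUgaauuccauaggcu
miR-708: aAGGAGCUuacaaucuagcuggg

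A set of 6 microRNAs with the seed AAAGUGC is shown because its members come from 3 clusters on different chromosomes. miR-17 (chr14:115043684-115043706) and miR-20a (chr14:115044183-115044205) lie on the plus strand. miR-106a (chrX:52742541-52742563) and miR-20b (chrX:52742159-52742181) lie on the minus strand. miR-106b (chr5:138165787-138165807) and miR-93 (chr5:138165574-138165596) lie on the minus strand within Mcm7.
miR-17: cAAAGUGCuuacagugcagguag
miR-20a: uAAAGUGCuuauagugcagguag
miR-106a: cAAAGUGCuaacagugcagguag
miR-20b: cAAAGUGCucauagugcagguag
miR-106b: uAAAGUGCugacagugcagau
miR-93: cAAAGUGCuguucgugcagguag

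Against gastrocnemius, 26 of 180 microRNAs (14.4%) were at least 2-fold higher and 39 (21.7%) at least 2-fold lower in inguinal fat, 36.1% in either direction. Against soleus, 32 of 184 (17.4%) were higher and 39 (21.2%) lower, 38.6% in either direction. Both comparisons use the same inguinal array, so their values are given side by side and an overlap between them is not counted. The median log2 ratio over all compared was -0.20 against gastrocnemius and -0.21 against soleus. The lower side held the larger folds: 6 microRNAs were at least 10-fold lower and 1 at least 10-fold higher than in gastrocnemius, and 7 and 1 than in soleus. The spot SE of a log2 ratio, which covers only the noise between the 4 spots of a probe, had a median of 0.11 for gastrocnemius and 0.12 for soleus. A call needed a log2 ratio of at least 1 in either direction, so passing 2 spot SE was nearly fixed in advance and adds no support. Every measured call against gastrocnemius, 44 of 44, exceeded 2 spot SE, and 46 of 47 did against soleus. The exception was miR-674, with 1 soleus spot at 3 units beside others of up to 134 and a spot SE of 1.36.

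**Figure D1:**
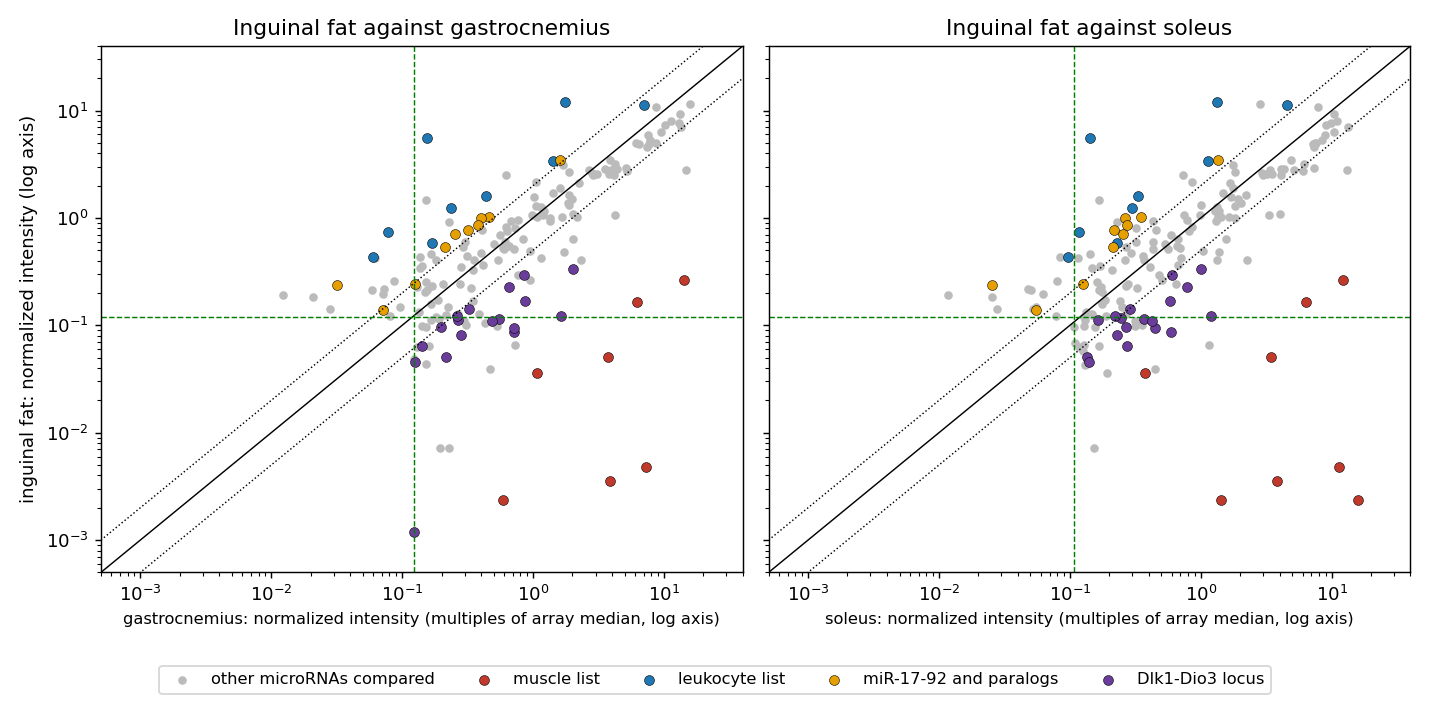
Normalized intensity in inguinal fat (vertical, log axis) against gastrocnemius (left) and soleus (right), each point a microRNA detected on at least 1 array of the pair and drawn at its deposited level. The solid line marks equal levels, dotted lines 2-fold, and dashed lines the lowest detected level of each array; muscle microRNAs lie far below the line and leukocyte microRNAs above it.

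The muscle microRNAs showed the largest differences. Of the 9 listed, 7 were compared with gastrocnemius and all 7 were lower in inguinal fat, with a median log2 ratio of -5.02 against -0.20 over all compared. Against soleus all 8 compared were lower, with a median of -5.14 against -0.21. The shares lower over all compared were 21.7% for gastrocnemius and 21.2% for soleus. Of the 9, miR-133a and miR-133b were above the floor in inguinal fat, and the others were under it and could not be called higher. Their intensities summed to 221.5 units in inguinal fat, against 15117.5 units in gastrocnemius and 25827 units in soleus.

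miR-133a, a regulator of myoblast growth and differentiation, had a level of 0.263 in inguinal fat, against 14.2 in gastrocnemius and 12.3 in soleus. Its 4 spots ran from 100 to 111 units in inguinal fat, against 5511 to 5857 in gastrocnemius and 5639 to 6006 in soleus. The spots did not overlap between inguinal fat and either muscle, and the folds were 54.0 and 46.8 (spot SE 0.04 for each log2 ratio). miR-133b stood at 0.164 in inguinal fat, against 6.21 in gastrocnemius and 6.39 in soleus, which is 37.9-fold and 38.9-fold lower. These sequences are near copies of each other, so their probes may share signal and their separate values are uncertain, as for miR-1 with miR-206.

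Signal for miR-206, which promotes myoblast differentiation, was 2 units in inguinal fat, against 2989.5 in gastrocnemius and 5337.5 in soleus. It was thus under the floor in inguinal fat and lower by at least 61.7-fold than in gastrocnemius and by at least 96.0-fold than in soleus. miR-1, made in skeletal and heart muscle, was at 21.5 units in inguinal fat, under the floor, and lower by at least 31.5-fold than in gastrocnemius and at least 28.7-fold than in soleus. miR-133a*, the other arm of that precursor, at 1.5 units in inguinal fat, was lower by at least 32.4-fold and at least 32-fold. miR-486, which is made in muscle and in red cells, was lower by at least 9.0-fold than in gastrocnemius and by at least 3.13-fold than in soleus.

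The slow-fibre pair separated the comparisons. miR-208b read 1 unit in inguinal fat, against 239.5 in gastrocnemius and 7479.5 in soleus. It was lower by at least 4.94-fold than in gastrocnemius and by at least 134-fold than in soleus, the widest gap of either comparison. miR-499, at 1 unit in inguinal fat, was under the floor in gastrocnemius too (32 units) and has no fold there, and it was lower than in soleus (670 units) by at least 12-fold. Both microRNAs take part in keeping the slow fibre programme.

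**Figure D2:**
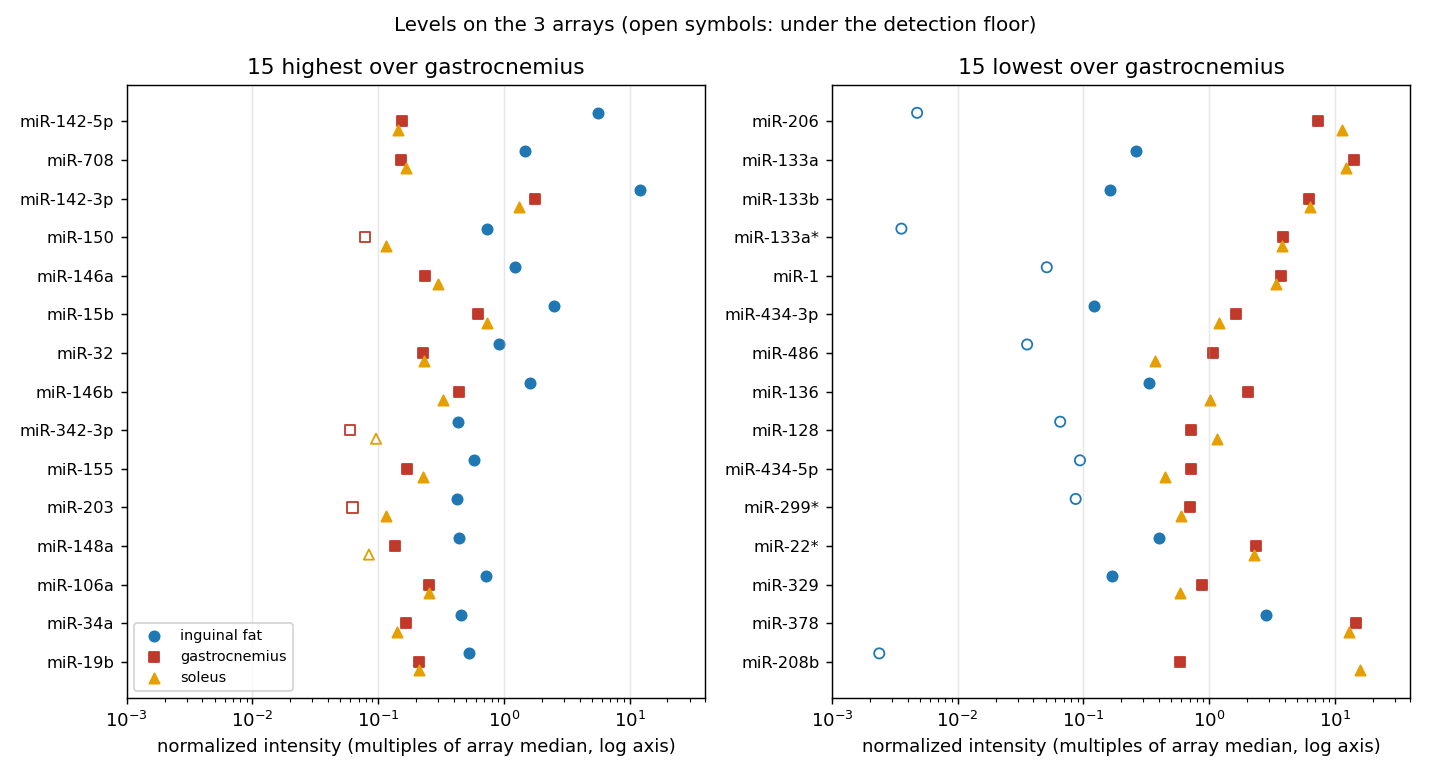
Normalized intensity (log axis) in inguinal fat (circles), gastrocnemius (squares) and soleus (triangles) for the 15 microRNAs with the highest (left) and the 15 with the lowest (right) ratio of inguinal fat over gastrocnemius, each symbol 1 array and open symbols under the detection floor. miR-142-5p stands at 5.56 in inguinal fat beside 0.156 and 0.143 in the muscles, and miR-206 and miR-208b fall near the bottom of the scale in inguinal fat.

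The microRNAs of the Dlk1-Dio3 locus, an imprinted region transcribed from the maternal chromosome, were lower in inguinal fat wherever they passed 2-fold, under the authors' scaling. Of 69 on the array, 18 were compared with gastrocnemius, and 13 of them were lower, 0 higher, at a median log2 ratio of -1.40. Most of the 18 were under the floor in inguinal fat. Among them were miR-127, miR-411, miR-299*, miR-434-5p, miR-541 and miR-377, and every member inside 2-fold against gastrocnemius. These entered through muscle alone and could not be called higher. The count of 0 higher therefore has meaning only for the remaining members. Against soleus 13 of 18 were lower and 0 higher, with a median of -1.18. Over all compared, 21.7% were lower than in gastrocnemius and 21.2% lower than in soleus. Under other scalings the number lower ran from 7 to 13 against gastrocnemius and from 6 to 15 against soleus.

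Levels of miR-434-3p were 0.122 in inguinal fat, 1.62 in gastrocnemius and 1.20 in soleus. That made it 13.3-fold (spot SE 0.10) and 9.76-fold (spot SE 0.10) lower in inguinal fat. The 5p arm was under the floor in inguinal fat and lower by at least 6.01-fold and at least 3.77-fold. miR-136 stood at 0.333 in inguinal fat, against 2.03 in gastrocnemius and 1.01 in soleus, 6.11-fold and 3.04-fold lower.

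miR-329 was 5.21-fold lower than in gastrocnemius and 3.50-fold lower than in soleus, and miR-487b 2.92-fold and 3.49-fold lower. At least 5.98-fold and 5.02-fold lower was miR-299*, and miR-127, known as an antisense regulator of Rtl1, was lower by at least 4.63-fold and 3.12-fold. miR-411 was lower by at least 4.08-fold and 3.60-fold, and miR-379 by 2.92-fold and 2.04-fold. The miR-379 calls stayed past 2-fold under 5 of the 7 other scalings against gastrocnemius and under 2 against soleus. The members inside 2-fold against gastrocnemius were miR-381, miR-341, miR-667, miR-337-3p and miR-539, and each of them was under the floor in inguinal fat, so that its ratio is a bound.

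Several other microRNAs were also lower in inguinal fat. miR-378, of the brown adipocyte list, lies in the gene of a PGC-1 coactivator and acts on mitochondrial metabolism. It had a level of 2.83 in inguinal fat, against 14.6 in gastrocnemius and 13 in soleus. That was 5.17-fold lower than in gastrocnemius (spot SE 0.09) and 4.59-fold lower than in soleus (spot SE 0.14). Its other arm, miR-378*, was lower by at least 3.94-fold and at least 3.76-fold. miR-128, also abundant in neurons, was at 27.5 units in inguinal fat, under the floor, and lower by at least 6.08-fold and at least 9.74-fold. miR-335-5p, encoded within the imprinted Mest gene, was 3.21-fold lower than in gastrocnemius and 2.47-fold lower than in soleus. It stayed past 2-fold under 6 of the 7 other scalings against gastrocnemius and under 4 against soleus. miR-805, whose role is unclear, was 3.97-fold and 3.10-fold lower, past 2-fold under 7 and 6 of the 7 other scalings.

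The miR-30 family, which acts in many tissues, had 2 of 7 compared members lower than in gastrocnemius, with a median log2 ratio of -0.82, and 3 of 7 lower than in soleus, with a median of -0.90. With 21.7% and 21.2% of all compared microRNAs lower, counts this small in 7 members do not set the family apart, and the same holds for the clusters of miR-23, miR-27 and miR-24. The highest medians over the other scalings were -0.0019 and -0.16, and the number lower than in soleus ranged from 0 to 4 over the scalings. The star arms miR-30a* and miR-30e*, which share the seed UUUCAGU, had log2 ratios of -2.17 and -1.83 against gastrocnemius and -1.40 and -1.52 against soleus. These clusters had a median log2 ratio of -0.42 with 1 of 7 lower against gastrocnemius, positive under spike-in scaling and normexp with quantile normalization, and of -0.94 with 3 of 7 lower against soleus. miR-24-1* was at 1.09 in inguinal fat, against 2.02 in gastrocnemius and 4.0 in soleus, 1.86-fold and 3.68-fold lower. miR-24-2*, which shares its seed UGCCUAC, was 1.33-fold and 3.23-fold lower.

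The leukocyte microRNAs were higher in inguinal fat. Against gastrocnemius 8 of 9 were at least 2-fold higher, 0 were lower and the median log2 ratio was 1.86, and against soleus 9 of 9 were higher, with a median of 2.05. Under the floor were miR-342-3p in both muscles and miR-150 in gastrocnemius. In those comparisons they entered through inguinal fat alone and could not be called lower. The shares higher over all compared were 14.4% for gastrocnemius and 17.4% for soleus. Their intensities summed to 15452 units in inguinal fat, against 4607.5 in gastrocnemius and 3860.5 in soleus. Over the other scalings 8 or 9 of the 9 stayed higher than gastrocnemius and all 9 stayed higher than soleus.

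miR-142-5p, made in cells of the blood lineages, had a level of 5.56 in inguinal fat, against 0.156 in gastrocnemius and 0.143 in soleus. Its 4 spots ran from 2052 to 2405 units in inguinal fat, against 26 to 68 in gastrocnemius and 48 to 89 in soleus. The folds were 35.7 (spot SE 0.34) and 38.8 (spot SE 0.20), the largest upward differences in both comparisons, and the muscle values stood close to the floor. The other arm, miR-142-3p, stood at 12 in inguinal fat, against 1.77 in gastrocnemius and 1.33 in soleus, 6.80-fold and 9.08-fold higher.

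miR-150, abundant in mature lymphocytes, was at 309 units in inguinal fat, against 32 in gastrocnemius, which is under the floor, and 54.5 in soleus. It was higher by at least 5.93-fold than in gastrocnemius and by 6.31-fold than in soleus. miR-146a and miR-146b, which damp inflammatory signalling, were 5.22-fold and 3.64-fold higher than in gastrocnemius and 4.14-fold and 4.86-fold higher than in soleus. These share the seed GAGAACU, and their probes may share signal.

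miR-155, induced in activated immune cells, was 3.45-fold and 2.55-fold higher, and miR-342-3p at least 3.49-fold and 4.0-fold higher. miR-223, a myeloid microRNA, had a level of 3.41 in inguinal fat, against 1.41 in gastrocnemius and 1.13 in soleus, 2.41-fold and 3.02-fold higher. miR-21, which many cell types make, was 1.60-fold above gastrocnemius, inside the 2-fold line, and 2.43-fold above soleus. Which cells of the inguinal sample gave these signals was not tested.

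The miR-17-92 cluster and its paralogs, best known for promoting cell proliferation, were higher as a group. Of 17 on the array, 10 were compared. Higher than gastrocnemius were 7 of these, for a median log2 ratio of 1.17, and higher than soleus were 8, for a median of 1.42, with 0 lower in either comparison. Of the 10, miR-25 and miR-20b were under the floor in both muscles and could not be called lower. Over all compared, 14.4% were higher than gastrocnemius and 17.4% higher than soleus. All 6 members with the seed AAAGUGC had positive ratios in each comparison, from 0.94 to 1.5 on the log2 scale against gastrocnemius and from 1.14 to 1.83 against soleus. miR-20a had a level of 0.774 in inguinal fat, against 0.319 in gastrocnemius and 0.217 in soleus, 2.43-fold and 3.57-fold higher. miR-17, from the same transcript, was 2.25-fold and 2.92-fold higher.

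From the paralog cluster in Mcm7, miR-106b stood at 3.45 in inguinal fat, against 1.62 in gastrocnemius and 1.36 in soleus, 2.13-fold and 2.54-fold higher, and miR-93 was 2.25-fold and 3.13-fold higher. miR-106a was 2.82-fold and 2.83-fold higher. miR-19a and miR-19b, with the seed GUGCAAA, were 2.46-fold and 2.53-fold higher than in gastrocnemius and 3.76-fold and 2.50-fold higher than in soleus. The star arm of miR-17 was inside 2-fold in both comparisons. miR-25 was under the floor in both muscles, so its ratios, at least 1.11-fold and at least 1.28-fold higher, do not place it on either side of 2-fold. miR-20b was at least 1.92-fold and at least 2.20-fold higher. Close sequences among miR-17, miR-20a, miR-20b and miR-106a make their separate values uncertain. Leukocyte microRNAs were higher in inguinal fat in the same comparisons, and their part in the ratios of this cluster was not tested.

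The microRNAs of the seed AGCAGCA differed in their ratios. miR-15b had a level of 2.53 in inguinal fat, against 0.620 in gastrocnemius and 0.732 in soleus, 4.07-fold and 3.45-fold higher. miR-15a and miR-16 carry the same seed and had log2 ratios of -0.16 and -0.19 against gastrocnemius and -0.50 and -0.43 against soleus. The sequences of miR-15b (chr3:69009775-69009796, plus strand, within Smc4) and miR-15a (chr14:61632075-61632096, minus strand, within Dleu2) show how little separates the probes' targets.
miR-15b: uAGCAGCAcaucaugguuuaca
miR-15a: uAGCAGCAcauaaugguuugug

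miR-32, with the seed AUUGCAC, had a level of 0.914 in inguinal fat, against 0.229 in gastrocnemius and 0.230 in soleus, 3.99-fold and 3.98-fold higher.

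Among microRNAs in none of the lists, miR-708 had the largest upward ratio to either muscle. It had a level of 1.48 in inguinal fat, against 0.152 in gastrocnemius and 0.167 in soleus. Its spots ran from 551 to 690 units in inguinal fat, against 55 to 69 in gastrocnemius and 62 to 88 in soleus, with no overlap. The folds were 9.75 (spot SE 0.10) and 8.89 (spot SE 0.13).

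miR-203, known from skin epithelium, was higher by at least 3.43-fold than in gastrocnemius and by 3.68-fold than in soleus, and it was the 1 of 10 epithelial-list members that was compared, the other 9 being under the floor on all 3 arrays. miR-148a, reported to promote adipocyte formation, was 3.21-fold higher than in gastrocnemius and at least 4.05-fold higher than in soleus. miR-34a, a target of p53, was 2.77-fold and 3.23-fold higher, and miR-652 2.51-fold and 2.30-fold. miR-423-5p was 2.52-fold higher than in gastrocnemius and 2.13-fold higher than in soleus. It stayed past 2-fold under all 7 other scalings against gastrocnemius and under 4 against soleus.

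**Figure D3:**
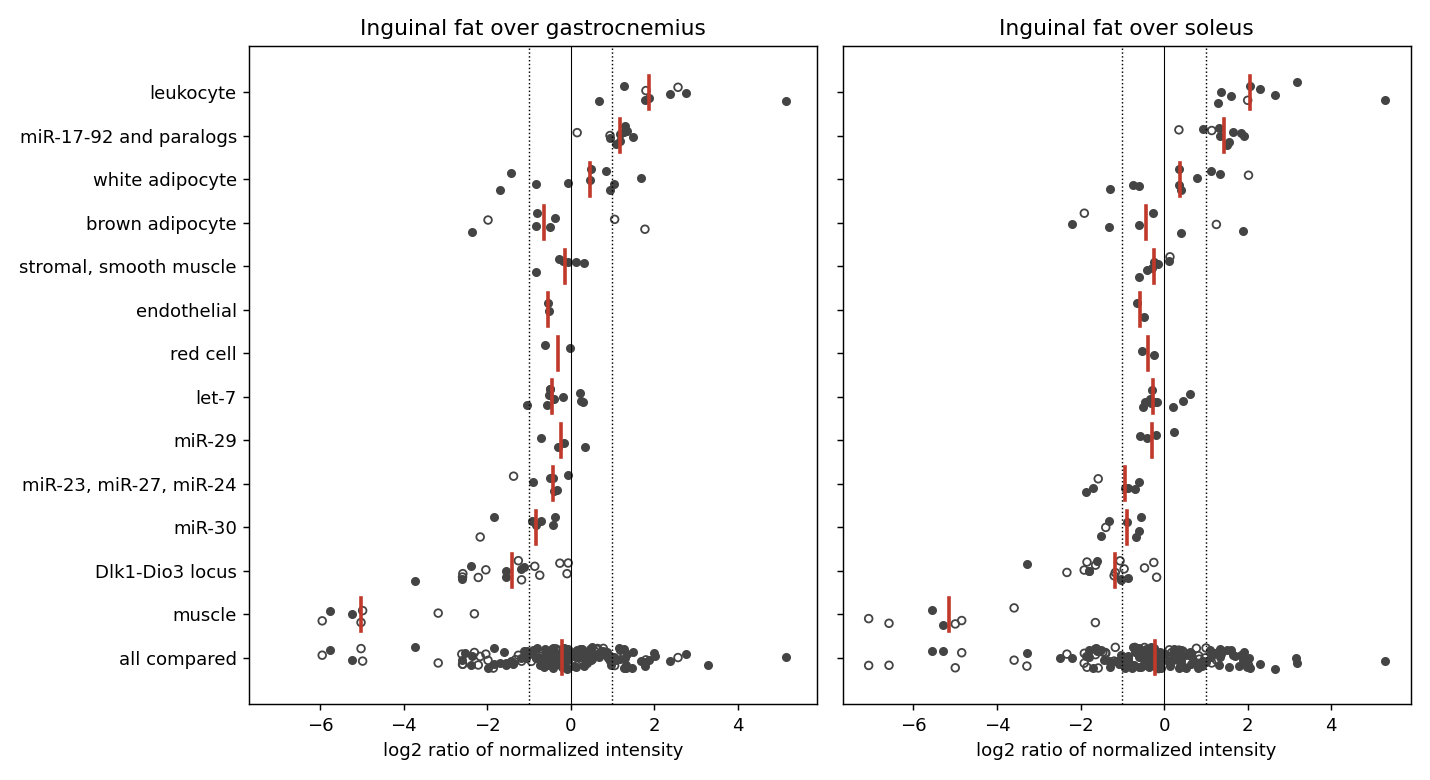
Log2 ratio of normalized intensity, inguinal fat over gastrocnemius (left) and over soleus (right), for the compared members of 13 microRNA lists and for all compared, each point a microRNA, open circles bounds and red bars medians; dotted lines mark 2-fold. The muscle medians lie near -5, the leukocyte medians near 2 and the Dlk1-Dio3 medians below -1. The lists from white adipocyte to miR-30 have medians inside the 2-fold lines, most of which change sign under spike-in scaling.

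The adipocyte lists had calls in both directions. Of 10 white adipocyte microRNAs, 2 exceeded gastrocnemius by 2-fold and 2 were lower, for a median log2 ratio of 0.47, and 3 exceeded soleus and 1 was lower, for a median of 0.38. Over all compared, 14.4% were higher and 21.7% lower for gastrocnemius, and 17.4% and 21.2% for soleus. Counts this small do not set the list apart from those shares. miR-103, which acts on insulin sensitivity, had a level of 2.17 in inguinal fat, against 1.05 in gastrocnemius and 0.853 in soleus, 2.06-fold and 2.54-fold higher. miR-143, linked to adipocyte differentiation, had log2 ratios of -0.82 and -0.61 and was thus inside 2-fold. miR-196a, from the Hox clusters, was 2.70-fold lower than in gastrocnemius and 1.67-fold lower than in soleus. Its gastrocnemius call stayed past 2-fold under 5 of the 7 other scalings.

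Of the brown adipocyte list, 8 were compared. In the gastrocnemius comparison 2 were higher and 2 lower (median -0.65), and in the soleus comparison 2 were higher and 3 lower (median -0.43); both medians turned positive under spike-in scaling, and the soleus one also under quantile normalization with and without normexp. These counts, too, are too small to set the list apart from the shares over all compared. The higher pair was miR-203 and miR-455. miR-455, a promoter of brown fat formation, was at least 2.07-fold higher than in gastrocnemius and at least 2.38-fold higher than in soleus. Under normexp with quantile normalization these bounds came to at least 1.81-fold and at least 1.92-fold, which no longer places it past 2-fold. miR-193b was close to the floor in inguinal fat, at 52 units.

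The endothelial, red cell and stromal lists had no call in either comparison. The endothelial microRNAs miR-126-3p and miR-126-5p had log2 ratios of -0.55 and -0.52 against gastrocnemius and -0.66 and -0.49 against soleus, and the list's medians turned positive under 1 and 2 of the 7 other scalings. The red cell microRNAs miR-451 and miR-144 had a median of -0.31 against gastrocnemius and -0.39 against soleus, which turned positive under 4 and 3 of them. None of the 6 stromal and smooth muscle microRNAs compared with gastrocnemius passed 2-fold (median -0.13), nor did any of 7 compared with soleus (median -0.24), where miR-145* is a bound, and the medians turned positive under 4 and 3 of them. Of the 9 neural microRNAs, 2 were compared with gastrocnemius and 3 with soleus, and miR-128 was the 1 past 2-fold. miR-122, the liver microRNA, gave 2 units in inguinal fat, 5 in gastrocnemius and 12.5 in soleus.

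The let-7 family, which restrains growth, had 1 of 10 lower than in gastrocnemius, let-7d*, and 0 of 10 past 2-fold against soleus. The ratio of let-7d*, 2.06-fold lower, stayed past 2-fold under 2 of the 7 other scalings and came to 1.17-fold under spike-in scaling. The family's medians, -0.44 and -0.27, turned positive under 2 and 4 of them. The miR-29 family, which acts on collagen genes, had medians of -0.23 and -0.30 with 0 of 4 past 2-fold, and both turned positive under 4 of them.

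The smaller families mostly lay inside 2-fold, and counts in so few members do not set a family apart from all compared. Of 4 Hox-cluster microRNAs compared, 2 were lower than in gastrocnemius (miR-196a and miR-196b) and 0 passed 2-fold against soleus, with medians of -0.57 and -0.14 that turned positive under 2 and 5 of the 7 other scalings. The miR-196b call stayed past 2-fold under 2 of these scalings. The miR-99, miR-100 and miR-125 group, with 0 of 5 past 2-fold, had medians of -0.28 and -0.60, which turned positive under 3 and 2 of them. The miR-15 and miR-16 group had 1 of 8 higher and 1 of 8 lower in each comparison, with medians of 0.05 and -0.31, and the soleus median turned positive under 4 of them. The miR-34 family had miR-34a higher among 2 compared, with medians of 0.84 and 1.05. miR-181 members had a median of -0.70 over 3 against gastrocnemius, positive under spike-in scaling, where miR-181b was 2.08-fold lower under the authors' scaling.

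Under the authors' scaling, miR-193 and miR-503 had ratios of opposite sign to the muscles. miR-193 had a level of 11.5 in inguinal fat, against 15.8 in gastrocnemius and 2.81 in soleus, so it was 4.11-fold higher than in soleus but 1.37-fold lower than in gastrocnemius. Its log2 ratio to gastrocnemius, -0.45, turned to 0.37 under spike-in scaling and 0.23 under normexp with quantile normalization, so the opposite sign was lost there. miR-503 had a level of 0.240 in inguinal fat, against 0.205 in gastrocnemius and 0.649 in soleus, 1.17-fold higher and 2.70-fold lower, and its signs stayed opposite under all 7 other scalings. miR-350 and miR-706 were higher in inguinal fat in both comparisons but past 2-fold in 1 of them. miR-350 was 1.10-fold higher than in gastrocnemius and 2.51-fold higher than in soleus, and miR-706 2.21-fold and 1.10-fold higher.

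Arms of one precursor give a second reading of a transcript, although the arms differ in stability and abundance. Both arms could be compared for 14 precursors, and for 10 of these both ratios were measured rather than bounded. The arms had ratios of the same sign for 9 of 10 precursors against gastrocnemius and 10 of 10 against soleus, with a median gap of 0.46 and 0.67 on the log2 scale. The exception was miR-503, whose log2 ratio to gastrocnemius was 0.23 beside -1.38 for miR-503*. The widest gap was that of miR-142, whose 5p ratio was 5.25 times the 3p ratio against gastrocnemius and 4.27 times against soleus.

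For miR-22, which acts in heart and muscle growth, the star arm differed more from the muscles than the main arm. miR-22* had a level of 0.403 in inguinal fat, against 2.34 in gastrocnemius and 2.26 in soleus, 5.81-fold and 5.6-fold lower. miR-22 was 1.91-fold and 2.21-fold lower. The soleus call of miR-22 stayed past 2-fold under 2 of the 7 other scalings and came to 1.32-fold under spike-in scaling. The arms lie at chr11:75463734-75463755 (star) and chr11:75463772-75463793, on the plus strand.
miR-22*: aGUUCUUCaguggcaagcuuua
miR-22: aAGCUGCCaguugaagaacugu

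**Figure D4:**
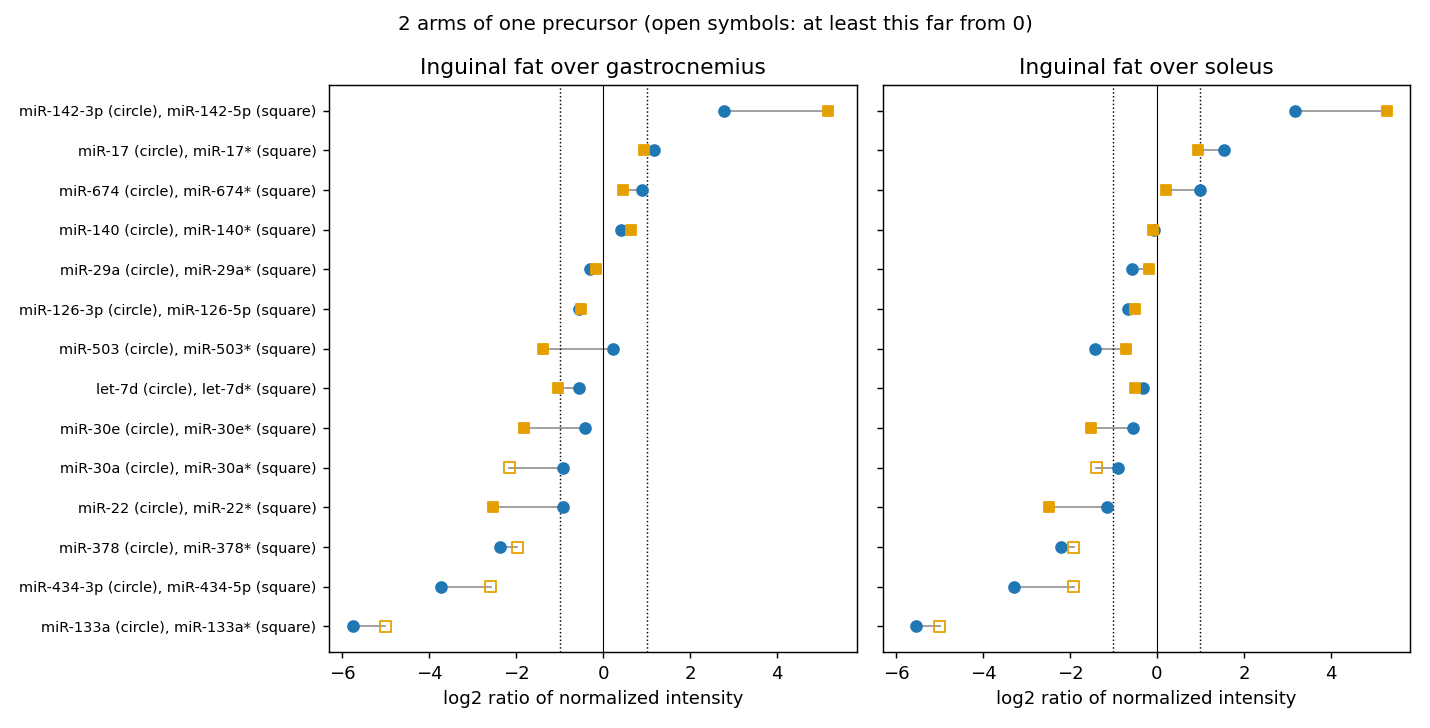
Log2 ratio of normalized intensity, inguinal fat over gastrocnemius (left) and over soleus (right), for both arms of 14 precursors, joined by a line; circles and squares are the arms named at the left, open symbols are bounds, and dotted lines mark 2-fold. The arms of miR-142 lie far apart above zero, and the miR-503 arms lie on opposite sides of zero in the left panel only.

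The remaining fat arrays put these levels in context, with no test of the differences. miR-142-5p had a level of 5.56 in inguinal fat, against 0.996 in epididymal fat and 0.366 in brown fat. Other leukocyte-list members did not all follow it. Against epididymal fat, miR-21 was lower in inguinal fat (11.2 against 15.7) and miR-223 nearly equal (3.41 against 3.39). Higher in inguinal than in epididymal fat were miR-146b (1.60 against 1.13) and miR-342-3p (0.432 against 0.121). miR-133a had 0.263 in inguinal fat, against 0.182 in epididymal and 3.60 in brown fat. miR-708 had 1.48 in inguinal fat, against 4.23 in epididymal and 1.91 in brown fat, so it was lower in inguinal fat than in either other depot while higher than in both muscles. miR-434-3p had 0.122 in inguinal fat, against 0.165 in epididymal and 0.102 in brown fat.

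The microRNAs next to the 2-fold line were as follows. Just inside it against gastrocnemius were miR-103 (2.06-fold) and miR-455 (at least 2.07-fold) on the higher side and let-7d* (2.06-fold) on the lower side. Just outside were miR-339-5p (1.96-fold higher) and miR-185 (1.92-fold lower). Against soleus miR-674 (2.00-fold higher) and miR-379 (2.04-fold lower) were just inside, and miR-339-5p (1.87-fold higher) and miR-190 (1.91-fold lower) just outside.

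The split of higher and lower microRNAs depended on how the arrays were scaled to each other. In the authors' scaling 40% of calls against gastrocnemius and 45.1% against soleus were higher in inguinal fat. Scaled to the 6 spike-in probes detected on all arrays, these shares were 73.3% and 76.3%, and with the 75th percentile over all mouse probes they were 58.8% and 59.2%. The 75th percentile over probes detected on all 5 arrays gave 46.2% and 55.7%. Quantile normalization gave 56.5% and 57.1%, or 58.5% and 59.6% after normexp background correction. The share was 40.9% and 37.0% with the median of each pair, and 40.9% and 36.5% with no scaling. Spike-in scaling called 63 higher and 23 lower against gastrocnemius and 58 and 18 against soleus. Most lists with a negative median inside 2-fold then turned positive. Among these were miR-181 (-0.70) and brown adipocyte (-0.65) against gastrocnemius, whereas the miR-30 medians stayed negative. The spike-ins had a geometric mean of 427 units in inguinal fat, against 731 in gastrocnemius and 795 in soleus, and spike-in scaling moved the median of all log2 ratios by 0.82 and 0.74.

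Of the higher calls, 24 of 26 against gastrocnemius and 26 of 32 against soleus stayed past 2-fold under all 7 other scalings tried, and of the lower calls, 21 of 39 and 18 of 39 did. The fold of each lower call was over 1.5 times smaller under at least 1 of them, and that of no higher call was. Spike-in scaling alone divides every lower fold by the same factor, 1.76 against gastrocnemius and 1.67 against soleus, and raises every higher fold by it. The lower calls were thus bound to shrink past 1.5 times, and the contrast between the sides is no measure of their stability. The lowest folds over those scalings were 28.9 for miR-133a and 5.81 for miR-434-3p against gastrocnemius, and 26.4 and 4.28 against soleus. The bound for miR-206 came to at least 25.4-fold against gastrocnemius and at least 39.0-fold against soleus. miR-208b remained at least 56.8-fold lower than in soleus. The bounds for miR-127 and miR-486 stayed past 2-fold against gastrocnemius, and against soleus they came to at least 1.83-fold under normexp with quantile normalization, which no longer places them past 2-fold.

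**Figure D5:**
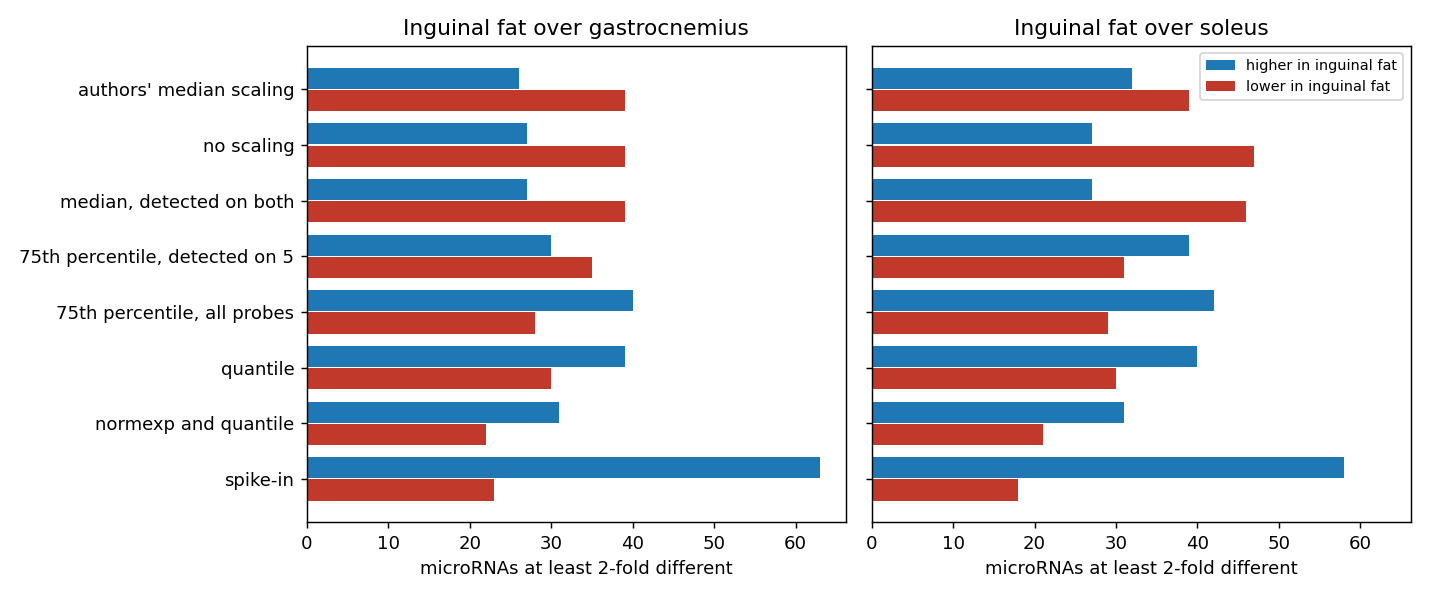
Number of microRNAs at least 2-fold higher (blue) and at least 2-fold lower (red) in inguinal fat relative to gastrocnemius (left) and soleus (right) under the authors' scaling and 7 others, with bars starting at 0. The authors' scaling gives 26 and 39 against gastrocnemius and 32 and 39 against soleus, and spike-in scaling gives 63 and 23 and 58 and 18.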

How the data were processed

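Each probe had 4 spots. Per the file headers, the authors subtracted background from each spot's intensity and took the median of the spots as a probe's intensity. They then divided it by the array's median over microRNAs detected in all samples, which makes the normalized intensity a ratio to that median. The scales were 420.5 units for inguinal fat, 407.75 for gastrocnemius and 467.75 for soleus. The authors' deposited ratios of each muscle over inguinal fat match those used here, turned the other way. Normalized intensities also matched the value table of the series to within 5e-09. Microarrays give no depth, so 1 array per tissue limits the precision.

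For each pair, normalized intensities were compared as a log2 ratio, with no test, and a microRNA was called at 2-fold. Spot SE came from the log2 values of the spots. The members and the 22 lists were chosen with earlier results of these data known. Named microRNAs were the 15 highest and 15 lowest calls of each pair, list members and those next to the 2-fold line. The others named (miR-350, miR-706, miR-652 and miR-805) were chosen after their values were seen. Calling was tried on simulated data with known folds, which held only the noise between spots of the inguinal array. It held no difference in scaling or between animals, so it does not test the calls against these. Of 82 microRNAs called in a pair, 63 were among the 72 names matched to a RefSeq sequence. The others were left without a sequence, which does not show that RefSeq lacks them. Alternatives were 7 scalings and 6 other settings. Python 3.11.15, numpy 2.4.6, pandas 2.3.3, matplotlib 3.10.9, R 4.3.3 and limma 3.58.1 were used.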

Additional observations from a re-analysis of the deposited data

Results flagged for a closer look

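miR-503 and miR-193 had ratios of opposite sign to the muscles under the authors' scaling. The log2 ratio of inguinal fat over soleus was -1.43 for miR-503, beside 0.23 over gastrocnemius. For miR-193 it was 2.04 over soleus, beside -0.45 over gastrocnemius, which turned to 0.37 under spike-in scaling and 0.23 under normexp with quantile normalization. For miR-503 the signs stayed opposite under all 7 other scalings. With a floor of 100 units the gastrocnemius side, at 83.5 units, was raised to the lowest detected level. The resulting value of -0.08 is therefore not a measured ratio and does not give a sign. With 1 array per tissue the difference was not tested.

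Some probes for microRNAs of the mouse gammaherpesvirus passed the detection floor, although the labels name no infection. mghv-miR-M1-8 read 245.5 units in inguinal fat, against 130 in gastrocnemius and 186 in soleus. mghv-miR-M1-4 read 62.5 units in gastrocnemius and 87.5 in soleus, and mghv-miR-M1-7-3p read 76.5 units in soleus. Negative controls on these arrays reached at most 2 units.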

How the results depend on the processing

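No paired analysis was possible because there was a single array for every tissue. Counts of calls moved by over 1.5 times as follows, and the cause was not tested unless the setting itself tests fewer probes or another limit. Higher than gastrocnemius were 26 microRNAs, but 40 with the 75th percentile over all probes, 63 with spike-ins, 40 at a 1.5-fold limit and 12 at a 3-fold limit. Lower than gastrocnemius were 39, but 22 with normexp and quantile normalization, 23 with spike-ins, 22 among probes detected on both arrays, 61 at 1.5-fold and 25 at 3-fold. Higher than soleus were 32, but 58 with spike-ins and 17 at 3-fold. Lower than soleus were 39, but 21 with normexp and quantile normalization, 18 with spike-ins, 25 with a floor of 100 units, 20 among probes detected on both arrays, 61 at 1.5-fold and 23 at 3-fold.

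The median of all log2 ratios moved by 0.39 and 0.35 with the 75th percentile over all probes, 0.33 and 0.37 with quantile normalization, 0.40 and 0.37 with normexp added, 0.82 and 0.74 with spike-ins, and over soleus by 0.22 with the 75th percentile over probes detected on all 5 arrays, -0.14 with the pair's median and -0.15 with no scaling. Under the 7 scalings no called microRNA and no list with a median past 2-fold changed direction. Probes near the floor, and microRNAs under it on 1 side, have the least certain folds.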
